A study of Mus musculus with 6 samples.

Results

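Insr, Ucp2, Tmem18, Bbs9, Cntf and Cox6a2 are 6 of the 265 genes that a targeted primer set measured in single cells sorted from mouse hypothalamus. They were taken by symbol, as metabolic and obesity-linked genes of that set, and they account for 9 of its 290 amplicons. Insr, Tmem18 and Cntf have 2 amplicons each, and Ucp2, Bbs9 and Cox6a2 have 1.

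Insr encodes the receptor for insulin, a receptor tyrosine kinase that passes the signal on through insulin receptor substrates such as Irs1. Ucp2 is a carrier protein of the inner mitochondrial membrane and is abundant in myeloid cells, including microglia. Cox6a2 is the heart and skeletal muscle form of a subunit of cytochrome c oxidase, the last enzyme of the respiratory chain. Tmem18 is a small protein of the nuclear envelope whose human locus is associated with body mass index. Bbs9 is a subunit of the BBSome, the complex that moves membrane proteins in and out of primary cilia, and its human gene is mutated in Bardet-Biedl syndrome, in which obesity is common. Cntf is a cytokine of the interleukin-6 family, made in the nervous system mainly by astrocytes and Schwann cells, that lowers food intake when it is given to rodents.

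The cells came from C57/Bl6 mice of genotype KLB-CRE; Ai14, in which Cre driven by Klb switches on tdTomato. Klb encodes the co-receptor for the hormone FGF21, and the cross marks any cell whose lineage has used the gene, so the sort does not show that a cell still used it. For each of 3 captures, 3 hypothalami were pooled, kept for 30 min at 37 °C in pronase (2 mg/ml) and sorted for tdTomato and viability. Libraries were made with a pair of custom BD Rhapsody panels per capture, a method that tags each mRNA molecule with a unique molecular identifier (UMI) and amplifies a chosen gene set. The 6 genes were measured in panel 2 of replicates 1, 2 and 3 and in the library labelled panel 1 of replicate 1, which held counts of the same larger set. All libraries share 1 genotype and tissue, and no age or sex is given, so no condition could be compared. A replicate is a capture. Panel 2 has n = 3, panel 1 of replicate 1 is given apart, and cells were not treated as replicates, so no test was made.

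Barcodes with at least 20 UMIs and 5 genes were kept. There were 44, 43 and 87 in panel 2 of replicates 1, 2 and 3 and 950 in panel 1 of replicate 1, or 1124 in all. No cell index was shared between any 2 of these libraries. The kept barcodes of a library held between 11423 and 109452 UMIs. The median barcode had 115.5, 1352 and 1068 UMIs in panel 2 of replicates 1, 2 and 3 and 51 UMIs in panel 1 of replicate 1. Panel 2 of replicate 1 stood apart: 50 genes were detected there, against 93 and 120 in the other captures of panel 2 and 157 in panel 1 of replicate 1. It also held no tdTomato UMI, although the cells had been sorted for the reporter. Means over panel 2 are therefore also given without it. The gene with most UMIs was Fcer1g, an immune receptor subunit of myeloid cells, in all 3 libraries of panel 2 and Bcas1, an oligodendrocyte gene, in panel 1 of replicate 1. No cell type was assigned to any barcode, so background from free RNA could not be measured in a type that lacks a gene.

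Ucp2 was the one gene of the 6 found in every barcode of panel 2, and Tmem18 was the other one found in all 4 libraries. Insr, Bbs9, Cntf and Cox6a2 were in 87.4% to 100% of barcodes of panel 2 of replicates 2 and 3 and in none of panel 2 of replicate 1. All 6 were found in panel 1 of replicate 1, at a lower depth, in shares of barcodes between 10.6% and 81.6%. Shares carry exact Clopper-Pearson 95% intervals and levels, in UMIs per 1000 UMIs of a library, carry exact Poisson 95% intervals. Both cover counting error alone. A limit beside a count of 0 stands for 3 counts and bounds barcodes with a UMI, not cells that express the gene. Levels are compared between libraries for 1 gene and never between genes, because amplicons differ in yield.

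Insr (NM_010568.2), the insulin receptor, had no UMI in 44 barcodes of panel 2 of replicate 1, which allows a share of up to 6.82%. It was in 41 of 43 barcodes of replicate 2 (95.3%, 84.2 to 99.4) and in 87 of 87 barcodes of replicate 3 (100%, 95.8 to 100). In panel 1 of replicate 1 it was in 430 of 950 barcodes (45.3%, 42.1 to 48.5). The shares were thus at the floor in 1 capture and near the ceiling in the others, with a mean over panel 2 of 65.1% ± 56.4 (SD, n = 3) and 97.7% without replicate 1. The level of Insr was 0, with a floor of 0.263, 2.95 (2.59 to 3.36) and 9.19 (8.63 to 9.78) UMIs per 1000 in panel 2 of replicates 1, 2 and 3. The level in panel 1 of replicate 1 was 8.81 UMIs per 1000 (8.25 to 9.40). Ordered by level, panel 2 of replicate 3 and panel 1 of replicate 1 had overlapping intervals, while panel 2 of replicate 2 was below both and panel 2 of replicate 1 below that. The mean level over panel 2 was 4.05 ± 4.69 UMIs per 1000 (SD, n = 3), or 6.07 without replicate 1. Between the captures of replicates 3 and 2 the level of Insr differed 3.11-fold, although nearly every barcode of both had a UMI.

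Ucp2 (NM_011671.5), the mitochondrial carrier, was in 44 of 44, 43 of 43 and 87 of 87 barcodes of panel 2 of replicates 1, 2 and 3. Panel 1 of replicate 1 had it in 775 of 950 barcodes (81.6%, 79.0 to 84.0). Its level was 66.3 (61.6 to 71.2), 60.2 (58.5 to 62.0) and 58.7 (57.3 to 60.2) UMIs per 1000 in panel 2 of replicates 1, 2 and 3, against 23.8 (22.9 to 24.7) in panel 1 of replicate 1. Neighbouring captures of panel 2 had overlapping intervals, and all 3 were above panel 1 of replicate 1. The mean over panel 2 was 61.7 ± 4.00 UMIs per 1000 (SD, n = 3), a coefficient of variation of 6.48%, the smallest of the 6 genes. Fcer1g, the one myeloid marker of 5 listed that the set measured, was at 120.7, 83.5 and 98.8 UMIs per 1000 in panel 2 of replicates 1, 2 and 3 and at 26.9 in panel 1 of replicate 1. Both genes were thus lowest in panel 1 of replicate 1. The part of myeloid RNA in the level of Ucp2 was not tested.

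Cox6a2 (NM_009943.2), the muscle-type oxidase subunit, was in 0 of 44 barcodes of panel 2 of replicate 1. It was in 41 of 43 barcodes of replicate 2 (95.3%, 84.2 to 99.4) and in 80 of 87 of replicate 3 (92.0%, 84.1 to 96.7). Of the barcodes of panel 1 of replicate 1, 116 of 950 had it (12.2%, 10.2 to 14.5). The mean share over panel 2 was 62.4% ± 54.1 (SD, n = 3), or 93.7% without replicate 1. Its level was 0, 5.20 (4.71 to 5.73) and 2.45 (2.16 to 2.76) UMIs per 1000 in panel 2 of replicates 1, 2 and 3, and 1.99 (1.73 to 2.27) in panel 1 of replicate 1. The intervals of panel 2 of replicate 3 and panel 1 of replicate 1 overlapped. Of the 414 Cox6a2 UMIs of panel 2 of replicate 2, 81 lay in 1 barcode and 67 in another. By the median barcode, panel 2 of replicates 2 and 3 were closer, at 3.36 and 2.06 UMIs per 1000. The mean level was 2.55 ± 2.60 UMIs per 1000 (SD, n = 3), or 3.83 without replicate 1. None of the 5 listed muscle markers was in the primer set, so muscle RNA could not be looked for.

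Tmem18 (NM_172049.2), the nuclear envelope protein, was in 32 of 44 barcodes of panel 2 of replicate 1 (72.7%, 57.2 to 85.0) and in all 43 and all 87 of replicates 2 and 3. Panel 1 of replicate 1 had it in 289 of 950 (30.4%, 27.5 to 33.5). The mean share over panel 2 was 90.9% ± 15.7 (SD, n = 3). The level of Tmem18 was 10.2 (8.47 to 12.3), 13.4 (12.6 to 14.3) and 15.5 (14.8 to 16.3) UMIs per 1000 in panel 2 of replicates 1, 2 and 3. It was 4.85 (4.44 to 5.29) in panel 1 of replicate 1. No intervals of neighbouring libraries overlapped, and as with Ucp2 all 3 captures of panel 2 were above panel 1 of replicate 1. In panel 2 of replicate 1, however, 50 of the 117 Tmem18 UMIs lay in 1 barcode, which the interval does not take into account. The mean over panel 2 was 13.1 ± 2.66 UMIs per 1000 (SD, n = 3), or 14.5 without replicate 1.

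Bbs9 (NM_178415.1), the BBSome subunit, was in 0 of 44 barcodes of panel 2 of replicate 1 and in every barcode of panel 2 of replicates 2 and 3. Of those of panel 1 of replicate 1, 138 of 950 had it (14.5%, 12.3 to 16.9). Its level was 0, 8.58 (7.95 to 9.25) and 10.0 (9.43 to 10.6) UMIs per 1000 in panel 2 of replicates 1, 2 and 3, against 1.85 (1.60 to 2.13) in panel 1 of replicate 1. The captures in which it was found stood within 1.17-fold of each other. The mean level was 6.20 ± 5.42 UMIs per 1000 (SD, n = 3), or 9.30 without replicate 1.

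Cntf (NM_170786.2), the cytokine, was in 0 of 44 barcodes of panel 2 of replicate 1, 41 of 43 of replicate 2 (95.3%, 84.2 to 99.4) and 76 of 87 of replicate 3 (87.4%, 78.5 to 93.5). In panel 1 of replicate 1 it was in 101 of 950 (10.6%, 8.74 to 12.8), the lowest share of the 6 genes there. Its level was 0, 4.08 (3.65 to 4.55) and 2.14 (1.87 to 2.43) UMIs per 1000 in panel 2 of replicates 1, 2 and 3, and 1.47 (1.25 to 1.73) in panel 1 of replicate 1. The order of libraries was that of Cox6a2, with no overlap of neighbours for Cntf. Of the 325 Cntf UMIs of panel 2 of replicate 2, however, 122 lay in 1 barcode and 43 in another. By the median barcode, panel 2 of replicates 2 and 3 were closer, at 2.03 and 1.69 UMIs per 1000. The order of these captures thus leans on few barcodes. The mean over panel 2 was 2.07 ± 2.04 UMIs per 1000 (SD, n = 3), or 3.11 without replicate 1. None of the 3 Schwann cell markers listed was in the set.

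**Figure D1:**
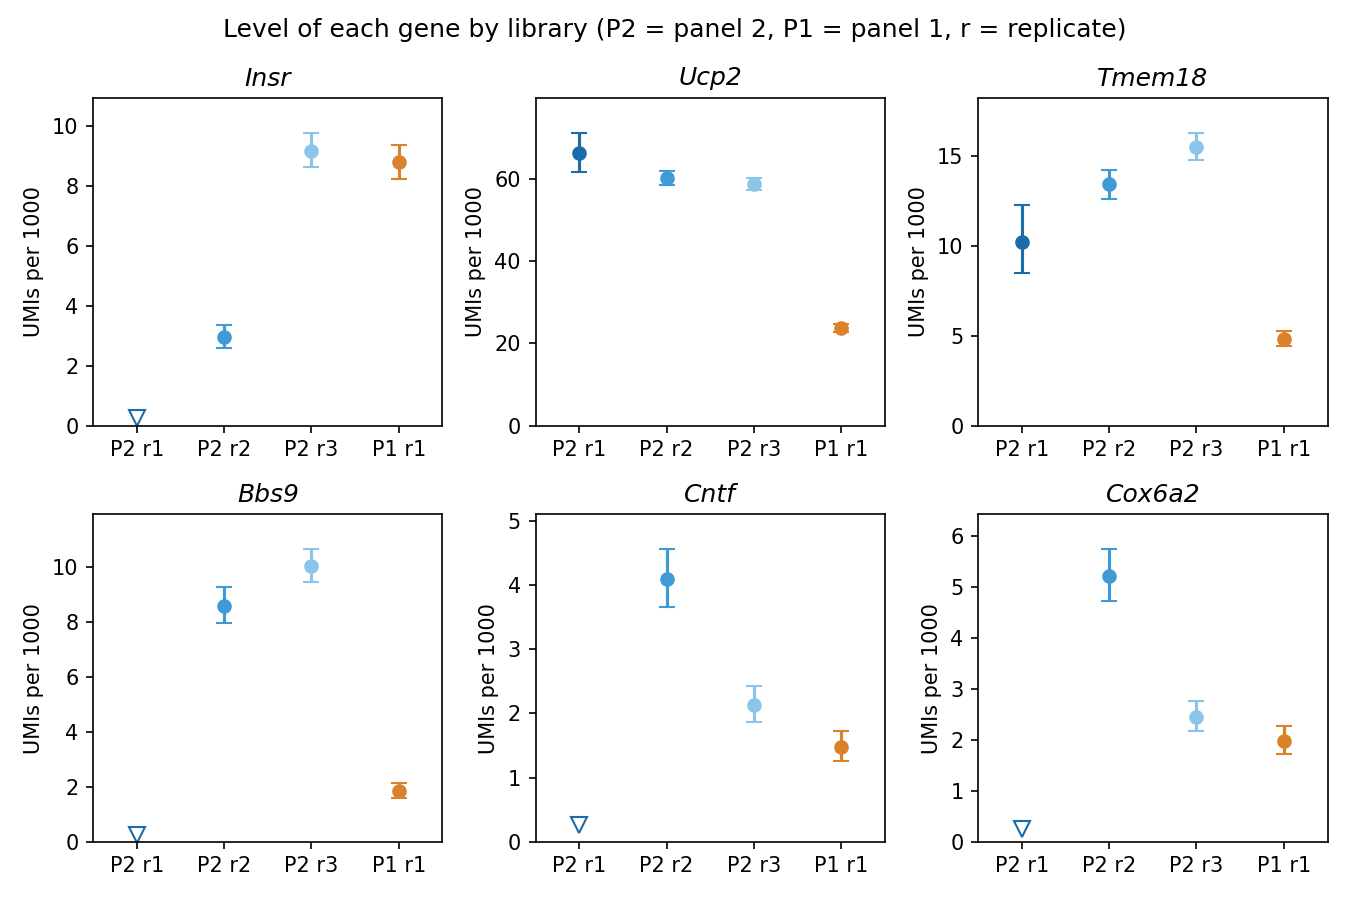
Level of each gene (UMIs per 1000 UMIs, vertical axes from 0) in panel 2 of replicates 1, 2 and 3 (blue) and panel 1 of replicate 1 (orange), with exact Poisson 95% intervals as bars. Open triangles mark the floor of 3 counts, 0.263 UMIs per 1000, for the 4 genes at 0 in panel 2 of replicate 1, and Ucp2 lies between 58.7 and 66.3 in all of panel 2.

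The shares moved with depth. Thinned at random to 35 UMIs a barcode, which left out 1 barcode in panel 2 and 306 in panel 1 of replicate 1, Ucp2 was in 83.7%, 81.4% and 85.1% of barcodes of panel 2 of replicates 1, 2 and 3. It was in 65.5% of those of panel 1 of replicate 1. Thinned Insr was in 0%, 6.98% and 34.5% of barcodes of panel 2 and in 26.4% of panel 1 of replicate 1. Thinned Tmem18 was in 30.2%, 32.6% and 51.7% of panel 2, against 16.6% of panel 1 of replicate 1. For Bbs9 the thinned shares were 0%, 30.2% and 26.4%, against 6.37%. Those of Cntf were 0%, 14.0% and 9.20%, against 4.04%, and those of Cox6a2 0%, 6.98% and 8.05%, against 4.81%. The thinned shares of Cntf and Cox6a2 rest on 8 barcodes or fewer in each library of panel 2, and that of Insr in panel 2 of replicate 2 on 3 barcodes, and no order was read from them.

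**Figure D2:**
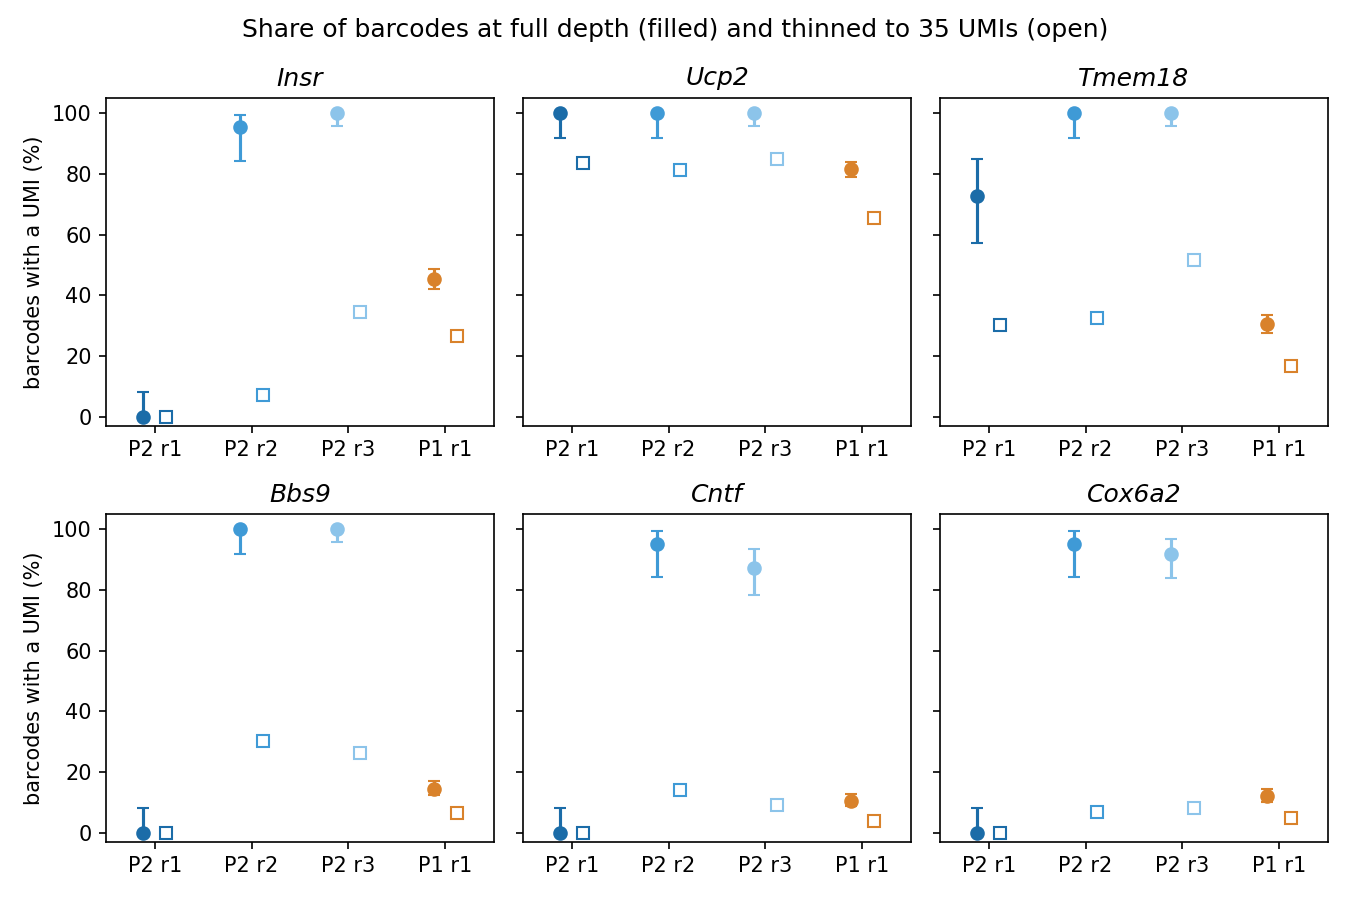
Share of barcodes (%) with at least 1 UMI of each gene, at full depth (filled circles, exact 95% intervals) and thinned to 35 UMIs (open squares), in panel 2 of replicates 1, 2 and 3 and in panel 1 of replicate 1. Shares near 100% in panel 2 of replicates 2 and 3 fall to 51.7% or less after thinning for every gene but Ucp2.

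Panel 1 of replicate 1 held enough barcodes to be split by depth. From the shallowest barcodes (20 to 34 UMIs, n = 306) through the middle ranges (35 to 69, n = 279, and 70 to 139, n = 167) to the deepest (140 to 3838, n = 198), the share with Ucp2 was 58.5%, 86.4%, 95.2% and 99.0%. The share with Insr was 23.5%, 36.2%, 57.5% and 81.3%, and that with Tmem18 11.4%, 18.6%, 41.9% and 66.7%. Bbs9 reached 36.9%, Cox6a2 31.3% and Cntf 25.8% in the deepest range, each below 5% in the shallowest. The level of Ucp2 did not follow its share: it was 27.2, 30.3, 25.7 and 21.6 UMIs per 1000 in the same order. That of Insr was 11.4, 10.9, 8.13 and 8.25 UMIs per 1000.

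**Figure D3:**
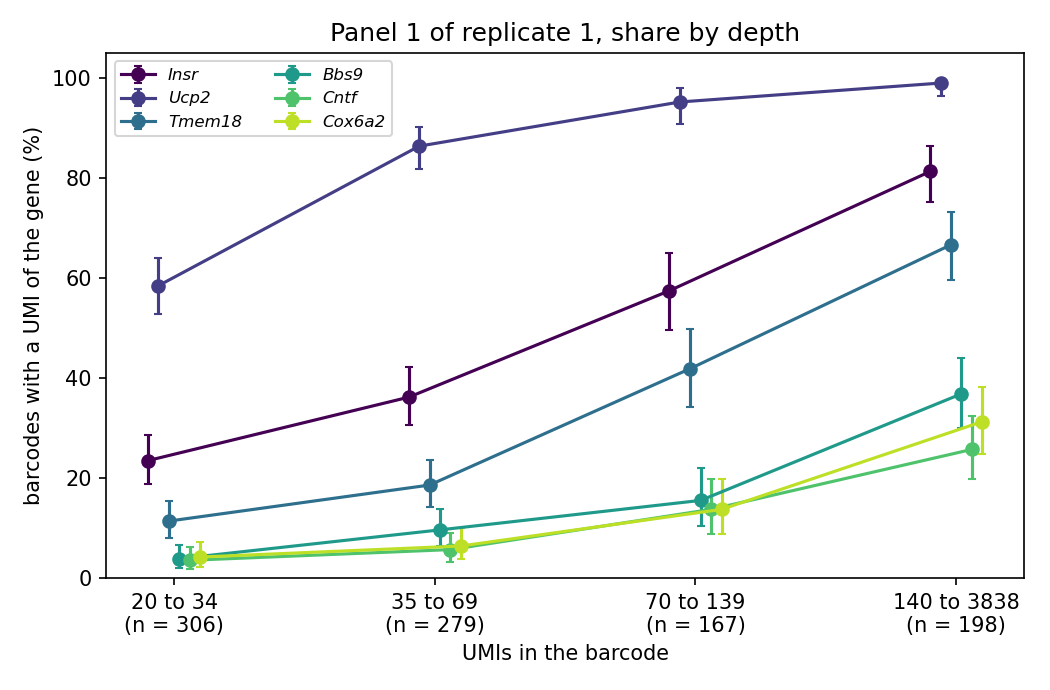
Share of barcodes of panel 1 of replicate 1 with a UMI of each gene (%), by the UMIs of the barcode, with exact 95% intervals as bars. The share of all 6 genes is higher in each deeper range, up to 99.0% for Ucp2 and 25.8% for Cntf.

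The genes were also counted together. All 6 were in 39 of 43 barcodes of panel 2 of replicate 2, in 69 of 87 of replicate 3 and in 13 of 950 of panel 1 of replicate 1. In panel 2 of replicate 1, 32 barcodes had Ucp2 and Tmem18 and the other 12 had Ucp2 alone. None of the 6 was in 102 barcodes of panel 1 of replicate 1, at a median of 26.5 UMIs, while the 13 with all 6 had a median of 412 UMIs.

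The 4 zeros in panel 2 of replicate 1 were set against the rest of the primer set. Of 48 genes at 1 or more UMIs per 1000 in each of the other 3 libraries, 20 (41.7%) were at 0 there, and all 6 genes described here are among the 48. Within replicate 1, 98 genes had at least 1 UMI per 1000 in panel 1, and 71 of them (72.4%) were at least 2-fold lower in panel 2, counting those at 0. Among these, Insr was at least 33.6-fold lower, Cox6a2 at least 7.56-fold, Bbs9 at least 7.06-fold and Cntf at least 5.62-fold, against a floor of 3 counts in the library. At the level of panel 1 of the same capture, panel 2 of replicate 1 would have held 100.7 UMIs of Insr, 22.7 of Cox6a2, 21.2 of Bbs9 and 16.8 of Cntf. Of the 98 genes, 15 (15.3%) were at least 2-fold higher in panel 2, among them Ucp2 (2.79-fold) and Tmem18 (2.11-fold). For Tmem18, 50 of its 117 UMIs in panel 2 of replicate 1 lay in 1 barcode, so its place among the 15 leans on that barcode. The median ratio over the 37 genes found in both was 1.58. Panel and library cannot be told apart within a capture, since there is 1 library of each. The pipeline version cannot be told apart from them either, as panel 1 was counted with version 1.3 and panel 2 with version 1.5.

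The genes with 2 amplicons gave a view of each library that does not depend on the total. The amplicons are named PolyA_1 and Reference_end, and values are the share of the gene's UMIs that came from PolyA_1. For Insr this was 35.7% (29.6 to 42.2) and 57.7% (54.5 to 60.7) in panel 2 of replicates 2 and 3, and 59.8% (56.5 to 62.9) in panel 1 of replicate 1. The library with the lower Insr level, panel 2 of replicate 2, thus also had the lower PolyA_1 share: its PolyA_1 level was 1.06, against 5.30 in replicate 3, and its Reference_end level 1.90, against 3.89, in UMIs per 1000. For Tmem18 the PolyA_1 share was 0 of 117 UMIs (upper bound 3.10%), 15.0% (12.9 to 17.3) and 25.0% (22.9 to 27.1) in panel 2 of replicates 1, 2 and 3, against 39.0% (34.7 to 43.4) in panel 1 of replicate 1. No pair of libraries had overlapping intervals for Tmem18. On Reference_end alone, Tmem18 was at 10.2, 11.4 and 11.6 UMIs per 1000 in panel 2 of replicates 1, 2 and 3 and at 2.96 in panel 1 of replicate 1, so the captures of panel 2 lay closer together on that amplicon than on the sum. How close panel 2 of replicate 1 came to the others leans on 1 barcode, which held 50 of its 117 UMIs. For Cntf the share was 46.8% (41.2 to 52.4) and 51.7% (45.1 to 58.3) in panel 2 of replicates 2 and 3 and 51.9% (43.8 to 60.0) in panel 1 of replicate 1, with all intervals overlapping. Both Insr amplicons were in 33 of 41 and 85 of 87 barcodes with Insr in panel 2 of replicates 2 and 3, and in 100 of 430 in panel 1 of replicate 1, where 259 of the 430 had a single Insr UMI and so could not hold both.

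**Figure D4:**
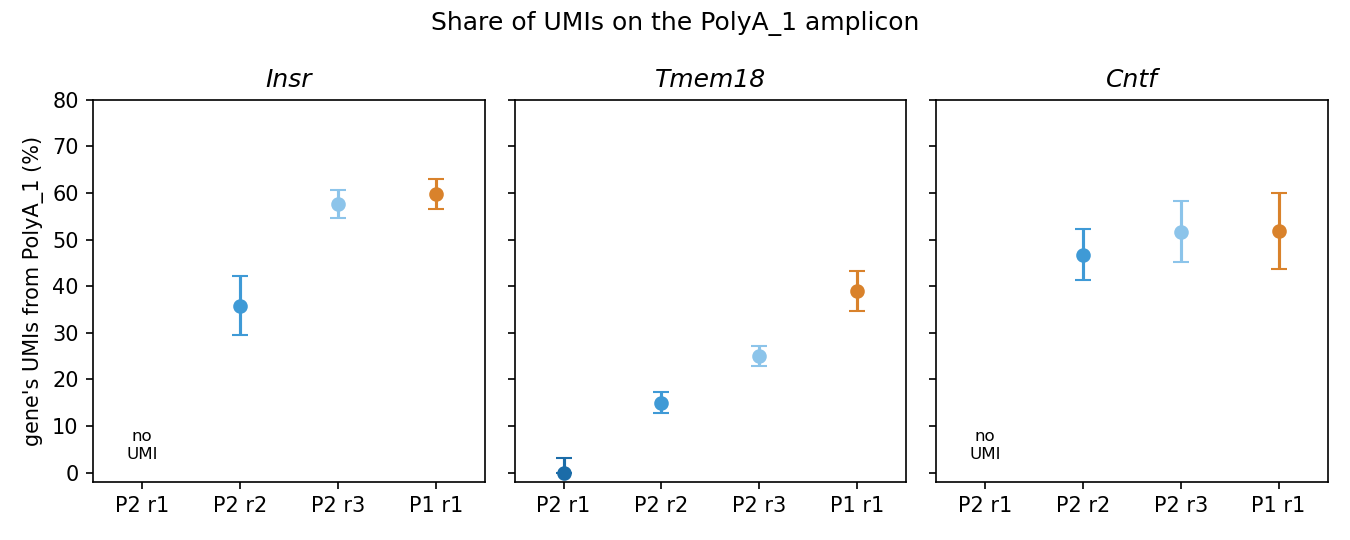
Share of a gene's UMIs that came from its PolyA_1 amplicon (%), with exact Clopper-Pearson 95% intervals as bars, for the 3 genes with 2 amplicons, in panel 2 of replicates 1, 2 and 3 and in panel 1 of replicate 1. Tmem18 runs between 0% and 39.0% over the libraries, while Cntf stays between 46.8% and 51.9% where it was found.

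Among the barcodes of a library, Ucp2 was spread widely. It had a median of 6, 82 and 68 UMIs a barcode and a highest of 154, 348 and 186 in panel 2 of replicates 1, 2 and 3, against a median of 1 and a highest of 69 in panel 1 of replicate 1. Set against a single profile per library, in which each barcode has the same share of Ucp2, the chi-square per degree of freedom was 17.1, 52.3 and 15.6 in panel 2 of replicates 1, 2 and 3. It was 1.04 in panel 1 of replicate 1, where counting alone gives about 1. The single profile was still not met there in the share of barcodes with Ucp2. That share was 81.6% (79.0 to 84.0), against 71.1% from the profile. The medians over the genes of each library that met the same detection limits were 3.09, 14.7 and 4.42 in panel 2 of replicates 1, 2 and 3 and 1.96 in panel 1 of replicate 1. Without the 2 barcodes of largest residual, the values of Ucp2 fell to 2.55, 11.0 and 11.7 in panel 2 and 0.881 in panel 1 of replicate 1. Ucp2 thus stayed above 1 in panel 2 of replicates 1, 2 and 3 also without those barcodes, least so in replicate 1. The medians over genes were taken with all barcodes, so they are not a like comparison for these lower values.

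A few barcodes held much of the spread. In panel 2 of replicate 1, 1 barcode of 247 UMIs had 108 of Ucp2 and 56 of Grina, and in replicate 2, 1 barcode of 860 UMIs had 338 of Ucp2 and 147 of Grina. Grina encodes a membrane protein of the family that counters apoptosis. For Cox6a2, 1 barcode of panel 1 of replicate 1 had 27 of its 32 UMIs on that gene (84.4%), while the gene's level over that library was 0.199%. Without the 2 barcodes of largest residual its chi-square per degree of freedom there was 1.78, against 14.6 with them. In panel 2 of replicate 2, Cntf had 122 of its 325 UMIs in 1 barcode, and its value was 1.27 without the 2 barcodes, against 26.0 with them. Tmem18 had 50 of its 117 UMIs in panel 2 of replicate 1 in 1 barcode. Insr had 11 of the 22 UMIs of 1 barcode of panel 1 of replicate 1.

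**Figure D5:**
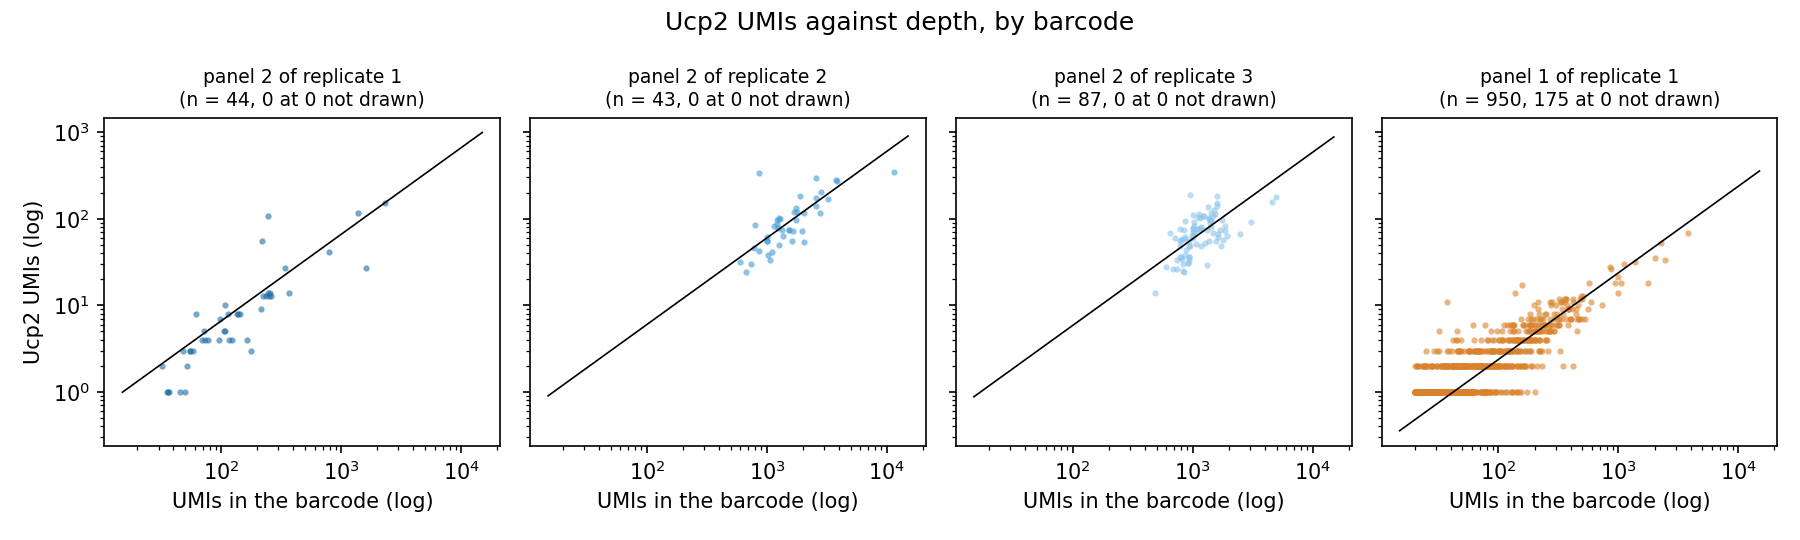
Ucp2 UMIs against all UMIs of each barcode (both axes logarithmic), 1 frame per library, with a line at the level of Ucp2 in that library. Barcodes without Ucp2, 175 of 950 in panel 1 of replicate 1 and 0 elsewhere, are not drawn, and the barcodes with 108 of 247 UMIs (replicate 1) and 338 of 860 UMIs (replicate 2) stand above the line in panel 2.

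Genes that vary with each of the 6 were named by the Pearson correlation r, across barcodes of 1 library, of the residuals from that single profile. Barcodes share the library, depth and free RNA, so r is a description. The median absolute r over all gene pairs was 0.22, 0.096 and 0.075 in panel 2 of replicates 1, 2 and 3 (n = 44, 43 and 87 barcodes) and 0.031 in panel 1 of replicate 1 (n = 950). Ucp2 varied most with Fcer1g in the 2 libraries with most barcodes. There r was 0.35 in panel 2 of replicate 3, first of 94 genes, and 0.16 in panel 1 of replicate 1, first of 90. Without the 2 barcodes of largest Ucp2 residual these were 0.44 and 0.14. In panel 2 of replicates 1 and 2 Ucp2 varied most with Grina, with r of 0.90 and 0.44, which were 0.74 and -0.03 without the same kind of barcodes. By the mean r over libraries, Grina came first for Ucp2 (0.36 over 4 libraries, 0.20 without those barcodes). That mean rests on panel 2 of replicates 1 and 2, and without those barcodes on replicate 1. In panel 2 of replicate 3 its r was 0.04 (place 18 of 94), and in panel 1 of replicate 1 it was 0.05 (place 12 of 90). Without those barcodes these were 0.07 and 0.01.

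For the other genes the highest mean r was 0.40 for Cox6a2 with Igf1, a growth factor that microglia make, over panel 2 of replicates 2 and 3 (0.76 and 0.04). It was 0.39 for Tmem18 with Nfix, a transcription factor (0.85 and -0.070 in the same libraries), and 0.21 for Cntf with Hnmt, which inactivates histamine (-0.10 and 0.52). It was 0.21 for Insr with Bmp4, a growth factor (0.37 and 0.05 in panel 2 of replicate 3 and panel 1 of replicate 1), and 0.21 for Bbs9 with Adrb1, a beta adrenergic receptor (0.27, 0.27 and 0.09 in panel 2 of replicates 2 and 3 and panel 1 of replicate 1). Leaving out the 2 barcodes of largest residual lowered all of these means, to between 0.04 (Tmem18 with Nfix) and 0.21 (Cox6a2 with Igf1). Within single libraries, Insr had r of 0.58 with Rarres2 and 0.55 with Cspg4, a proteoglycan of oligodendrocyte precursors, in panel 2 of replicate 2, and 0.45 and 0.44 without those barcodes. Cntf had r of 0.54 with Bmpr1a there, and 0.41 without them. The highest r with Insr in panel 1 of replicate 1 was 0.060 (Cspg5), and for Cox6a2, Bbs9 and Tmem18 the highest were 0.12 (Crym), 0.15 (Gm13498) and 0.16 (Atp9b).

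Pairs among the 6 genes had r near 0 in median. Over their 15 pairs r ran from -0.35 to 0.34 in panel 2 of replicate 2, from -0.16 to 0.38 in replicate 3 and from -0.05 to 0.07 in panel 1 of replicate 1, with medians of -0.02, -0.03 and -0.01. The highest, between Tmem18 and Cntf in panel 2 of replicate 3 (0.38), was 0.14 without the 2 barcodes of largest Tmem18 residual and 0.17 without those of Cntf.

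Levels were then compared, within a library, between barcodes with and without a UMI of a cell type marker. Barcodes with a marker are deeper, as they are chosen by a UMI. In panel 1 of replicate 1, barcodes with tdTomato (n = 281, median 130 UMIs) had 22.3 UMIs per 1000 of Ucp2 (21.2 to 23.5), against 26.2 (24.7 to 27.7) in those without (n = 669, median 41 UMIs). The ratio was 0.852, and 0.940 with overlapping intervals once the deepest 5% of barcodes were left out. Insr was at 8.39 UMIs per 1000 with tdTomato and 9.52 without, and the intervals of the other 5 genes overlapped. With Fcer1g (n = 700, median 68 UMIs) Ucp2 was at 24.3 UMIs per 1000 (23.3 to 25.3), against 26.1 (22.8 to 29.6) without it (n = 250, median 29 UMIs). Both intervals overlapped, in a library in which the myeloid gene had a UMI in most barcodes.

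Over the 26 markers, tdTomato included, that could be used in panel 1 of replicate 1, intervals overlapped for 25 with Bbs9, 23 with Tmem18, 20 with Cntf, 19 with Insr, 17 with Ucp2 and 14 with Cox6a2. Where they did not, the level was lower with the marker in every case for Insr, Ucp2, Tmem18, Bbs9 and Cntf, while Cox6a2 was lower with 9 markers and higher with 3. Fewer intervals stood apart once the deepest 5% of barcodes were left out, which kept 24 usable markers. Intervals then overlapped for all 24 with Tmem18 and with Bbs9, for 23 with Insr and with Ucp2, for 19 with Cntf and for 17 with Cox6a2. Of those still apart, the level was lower with the marker for Insr (1), Cntf (5) and Cox6a2 (7) and higher for Ucp2 (1). None of the 3 higher levels of Cox6a2 stayed apart. This setting keeps shallow barcodes rich in 1 gene, such as 1 with 27 Cox6a2 of 32 UMIs and 1 with 10 Cntf of 23 UMIs. The 86 barcodes without Cspg4, for example, held only 31 UMIs of Cox6a2 and 11 of Cntf. How far such single barcodes carry the differences of Cox6a2 and Cntf was not tested. Of the 7 markers with which Insr was lower, 3 are neuronal (Stmn2, Slc17a8 and Gad2), and the others are Gja1 of astrocytes, Nes of tanycytes, Ugt8a of oligodendrocytes and Fcer1g of myeloid cells. Insr was at 7.18 UMIs per 1000 with Stmn2 (n = 91) and 9.47 without, but at 9.67 with and 9.32 without it once the deepest barcodes were left out. With Slc17a8, a vesicular glutamate transporter, Insr was at 7.34 UMIs per 1000 (n = 111) and 9.44 without, and at 9.52 with and 9.34 without it in the shallower barcodes. The direction thus turned for Stmn2 and Slc17a8, with overlapping intervals. With Gad2 Insr was at 6.13 and without it at 9.08, and for Tubb3, another neuronal gene, at 9.37 with and 8.78 without at full depth. Neither Gad2 nor Tubb3 was usable once the deepest barcodes were left out. For Gad1, also neuronal, Insr was lower in both settings with overlapping intervals. It was at 7.78 with and 9.10 without, and at 8.70 with and 9.44 without it in the shallower barcodes. Insr was at 8.64 UMIs per 1000 with Fcer1g and 13.5 without, and at 9.06 with and 13.5 without it when the deepest barcodes were left out, the one difference of Insr that kept its intervals apart. For Ucp2 the one marker with intervals apart in that setting was Rarres2, with 27.4 UMIs per 1000 in barcodes that had it and 21.1 in those without.

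In panel 2 of replicate 3, Ucp2 was lower with each of the 5 usable markers, among them the oligodendrocyte genes Ermn (49.9 with, 66.6 UMIs per 1000 without) and Ugt8a (55.3 with and 60.8 without), Nes of tanycytes and precursors (54.3 with and 66.1 without) and the fibroblast gene Lum (55.8 with and 65.9 without). Without the deepest 5% of barcodes, intervals stayed apart with Ermn (58.2 with and 66.6 without) and Nes (61.4 with and 66.1 without) and overlapped with the other 3, and with Ugt8a the direction turned (64.6 with and 63.0 without). In panel 2 of replicate 2 the one usable marker was Nes, with Ucp2 at 50.0 UMIs per 1000 with it and 75.5 without, and at 54.0 with and 76.3 without it when the deepest barcodes were left out. Insr there was at 3.58 with Nes and 2.03 without, whereas in replicate 3 its intervals overlapped (9.49 with Nes and 8.72 without).

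A list of 65 genes of insulin and leptin signalling, mitochondrial respiration, obesity loci, cilia and the Cntf family was used for context, and 10 of them were in the primer set. Of those 10, 5 had a UMI. Fto, whose human locus is associated with obesity, was in 11 of 44, 43 of 43 and 87 of 87 barcodes of panel 2 of replicates 1, 2 and 3. Panel 1 of replicate 1 had it in 413 of 950. Its level was 1.40, 16.2 and 9.60 UMIs per 1000 in panel 2, against 9.77 in panel 1 of replicate 1, so like Insr, Bbs9, Cntf and Cox6a2 it was lowest in panel 2 of replicate 1. Irs1, the substrate of the insulin receptor, was in 0 of 44, 0 of 43 and 12 of 87 barcodes of panel 2 and in 78 of 950 of panel 1 of replicate 1 (8.21%). Igf1 was in 0 of 44, 40 of 43 and 32 of 87 barcodes of panel 2 and in none of panel 1 of replicate 1. Cntfr, the receptor subunit that binds Cntf, was in 2 of 44 barcodes with 18 UMIs, 3 of 43 and 12 of 87 of panel 2 and in 0 of 950 of panel 1 of replicate 1. Ntrk2, the receptor for brain-derived neurotrophic factor, was in 54 of 950 barcodes of panel 1 of replicate 1 (5.68%) and in none of panel 2. Lepr, Ppargc1a, Mc4r, Mc3r and Sim1 had no UMI in any library. The limit of 3 counts for panel 1 of replicate 1 is 0.316% of barcodes. None of the 13 listed Bardet-Biedl and ciliary genes was in the set, so Bbs9 could not be set beside its partners.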

How the data were processed

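UMI counts per barcode and amplicon of the larger gene set were used as deposited, with no normalization by the authors, per the labels. Per the file headers, panel 1 of replicate 1 was counted with version 1.3 and panel 2 with version 1.5 of BD's Targeted Rhapsody Analysis Pipeline. The submitters' processing notes name mm9, and no coordinates were used. Neither the aligner nor the cell calling rule is given in the sources used here. Labelled replicates are separate captures.

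Amplicons were summed by symbol, and all 6 symbols and accessions were found in a RefSeq table. Columns were read by each table's own header, except for the 21 barcodes that stand in tables of 2 replicates. Those were read in the column order of panel 2 of replicate 3, which has an additional amplicon. In panel 1 of replicate 1, 605 of 1555 barcodes under 20 UMIs or 5 genes were left out. A further 21 barcodes that stand in tables of 2 replicates were left out. No doublets were called. Shares and levels were computed for each library with exact 95% intervals, and means and SD over the captures of panel 2. Thinning used 35 UMIs and seed 0. Residuals are the count minus the expectation from the barcode's total and the gene's share of its library, over the root of that expectation, and were taken where genes were in at least 10% of barcodes and at least 20 barcodes. A marker was used where at least 20 barcodes had it and at least 20 lacked it. The scripts were tested on simulated counts. Python 3.11.15, numpy 2.4.6, pandas 2.3.3, scipy 1.17.1 and matplotlib 3.10.9 were used.

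The members, gene lists and markers were chosen with earlier results of these data known. By rule, the text names the 6 genes and their amplicons, the genes of highest r with each (among the 2 highest in a library, or the highest mean), the detected genes of the related lists and the gene with most UMIs of a library. Markers and the barcodes rich in 1 gene were named after their values were seen. Of the listed markers, 7 of 10 neuronal, 2 of 6 astrocyte, 3 of 5 tanycyte, 2 of 4 ependymal, 5 of 8 oligodendrocyte, 2 of 4 precursor, 1 of 5 myeloid, 3 of 4 endothelial, 2 of 3 mural and 3 of 4 fibroblast genes were measured. Results that need certain genes are not reported here.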

Additional observations from a re-analysis of the deposited data

Results flagged for a closer look

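The 21 barcodes that stand in tables of 2 replicates, left out of all other values, held signal of 5 of the 6 genes above the limit that a count of 0 allows (0.125 UMIs per 1000). They held 23969 UMIs in all, of which 222 were Insr, 415 Ucp2, 188 Tmem18, 146 Bbs9, 198 Cox6a2 and none Cntf. Most of these lay in 1 barcode per gene, with 188 of the 222 for Insr, 333 of the 415 for Ucp2, 156 of the 188 for Tmem18, 109 of the 146 for Bbs9 and 172 of the 198 for Cox6a2. All these counts rest on reading the barcodes in the column order of panel 2 of replicate 3, which has an additional amplicon. To which capture these barcodes belong was not tested.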

How the results depend on the processing

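The values come from 4 libraries with no condition to compare, and the depth of panel 1 of replicate 1 limits what a barcode without a UMI can show. No paired analysis was possible because the values come from no test between the panels. Thinned to 35 UMIs, the mean share over panel 2 was 83.4% for Ucp2, 38.2% for Tmem18, 7.72% for Cntf and 5.01% for Cox6a2. It fell from 65.1% to 13.8% for Insr and from 66.7% to 18.9% for Bbs9. These falls were less than the SD over captures (56.4 and 57.7), which is wide because both genes were absent from panel 2 of replicate 1. The mean share of Ucp2 was 96.2% with at least 2 UMIs required and 99.0% with the 21 shared barcodes put back. Its mean level was 67.5 UMIs per 1000 without the deepest 5% of barcodes and 68.7 with the most abundant gene left out of the total. The other settings tried moved panel 2 means by less than 1 SD over captures. Leaving out a replicate in turn, the mean level ran from 1.48 to 6.07 UMIs per 1000 for Insr, 59.5 to 63.3 for Ucp2, 11.8 to 14.5 for Tmem18, 4.29 to 9.30 for Bbs9, 1.07 to 3.11 for Cntf and 1.22 to 3.83 for Cox6a2. The mean r of Tmem18 with Nfix was -0.070 without panel 2 of replicate 2 and 0.85 without panel 2 of replicate 3, and that of Cntf with Hnmt was 0.52 without panel 2 of replicate 2 and -0.10 without panel 2 of replicate 3. The settings that left out 2 barcodes, and the deepest 5% for the spread and the markers, were chosen after seeing the data.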
